A study of Mus musculus with 16 samples.

Results

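The genes described here are Il33, which encodes the cytokine IL-33, Il1rl1, which encodes its receptor ST2, the protease genes Mcpt1, Mcpt2, Mcpt4, Cma1, Tpsb2 and Cpa3 of mast cells, and Siglecf, which encodes a surface lectin of eosinophils. They were read by name from the gene tables of all 16 libraries and are 9 of the 41740 genes listed. They were chosen by measured values, the far lower count of Il1rl1 in insulin-treated control mice, so the insulin comparison is given for these genes as a description without a test. Of the 9 genes, 4 (Il33, Il1rl1, Mcpt2 and Siglecf) passed the filter on low counts and are among the 15267 genes that entered the fits, and 5 did not.

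The RNA-seq libraries were made from total RNA of whole ileal wall in male STAM mice, a model of diabetes with steatohepatitis made by low-dose streptozotocin on day 2 of life and high-fat feeding that starts at week 4. Control-STAM-nonINS mice (untreated controls, n = 4) carried the floxed insulin receptor gene without Cre and received saline. Control-STAM-INS mice (insulin-treated controls, n = 6) had the same genotype and received insulin by subcutaneous injection from 6 weeks of age. ieIRKO-STAM-INS mice (n = 6) carried the same floxed gene with Villin-Cre, which is active in the intestinal epithelium and not in the other layers of the wall, and received insulin in the same way. The methods describe sampling of these mice at 20 weeks of age. The number on each label is a biological replicate.

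IL-33 is an alarmin that is kept in the nucleus of stromal, endothelial and epithelial cells and is released when they are damaged. It binds ST2, which pairs with the accessory protein IL1RAP and signals through MYD88 and IRAK kinases, and mast cells, group 2 innate lymphoid cells, regulatory T cells and eosinophils are known to carry ST2. A shorter, secreted form of ST2 binds IL-33 without signalling. In the mouse intestine, mucosal mast cells make the chymases encoded by Mcpt1 and Mcpt2, and connective tissue mast cells make those encoded by Mcpt4 and Cma1 together with tryptase and carboxypeptidase A3.

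Il1rl1 lies on the forward strand of GRCm38 at chr1:40429570-40465415, in a cluster of IL-1 receptor genes. GENCODE lists 5 protein-coding transcripts of this gene, 2 with a coding length of 1701 bases, 2 with 1011 and 1 with 195. A transcript of the shorter 1011-base kind begins at the first base of the gene, and one of the 1701-base kind begins further downstream, at position 40439627, so that the gene has a distal and a proximal start. The other 1011-base transcript begins at position 40439776, near the proximal start, so the short form is not tied to the distal start. The deposited counts are per gene and pool all of these forms. The 250 bases before each RefSeq start are shown because Il1rl1 is the one of the 9 genes whose groups did not overlap. Capitals mark TGTTTAC, the core motif of FOXO factors, and AGATAA, which is recognised by GATA factors. Both were searched on both strands, so that a match on the opposite strand is shown as its reverse complement.
Il1rl1 distal start, chr1:40429320-40429569: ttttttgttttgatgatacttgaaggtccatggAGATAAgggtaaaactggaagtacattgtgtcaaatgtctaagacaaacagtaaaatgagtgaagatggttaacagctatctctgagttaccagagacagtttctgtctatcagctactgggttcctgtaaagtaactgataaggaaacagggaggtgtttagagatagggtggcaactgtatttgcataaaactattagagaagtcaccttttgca
Il1rl1 proximal start, chr1:40439379-40439628: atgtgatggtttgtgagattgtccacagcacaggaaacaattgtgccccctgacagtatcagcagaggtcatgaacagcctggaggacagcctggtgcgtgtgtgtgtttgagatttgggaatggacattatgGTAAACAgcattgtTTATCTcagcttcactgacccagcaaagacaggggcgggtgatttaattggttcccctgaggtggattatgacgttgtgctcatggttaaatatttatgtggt
The distal window held AGATAA 217 bases before the start. The proximal window held TGTTTAC on the opposite strand 117 bases before the start and AGATAA on the opposite strand 103 bases before it. Of 32851 RefSeq promoter windows of GRCm38.p6, 3.17% held TGTTTAC and 9.99% held AGATAA, counted on both strands over the same 250 bases. These matches describe the letters only. Of the 9 genes, 7 had a window in this table, and Mcpt2 and Tpsb2 are named only. Cpa3 held AGATAA, Siglecf and the first of the Il33 windows held TGTTTAC, and the windows of Mcpt1, Mcpt4 and Cma1 held neither.

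Between 13288018 and 22215382 reads were counted per library. Levels are given as CPM, the count of a gene as a share of its library, scaled by TMM, and 1 read was worth 0.0437 to 0.0785 CPM. The targeted gene Insr had 49.9 to 76.1 CPM in insulin-treated controls and 57.5 to 90.4 CPM in those labelled ieIRKO-STAM-INS, with a log2 fold change of 0.10 between them (standard error, SE, 0.13, and an adjusted p of 0.805 by the quasi-likelihood test of edgeR), so the deletion was not visible as a lower count of whole-wall Insr. Against untreated controls, at 88.3 to 116 CPM, Insr was lower in both, by log2 fold changes of -0.75 (adjusted p = 0.00275) and -0.65 (adjusted p = 0.00582, both from edgeR). Every direction given for that group therefore rests on the label. Genes of B cells stood high in ieIRKO-STAM-INS replicates 2 and 3, with summed levels of 354 and 217 CPM against 24.0 to 51.6 CPM in the other 4 libraries of the group, and endothelial genes stood high in Control-STAM-nonINS replicate 4.

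Il33, the ligand, did not separate the groups. Its level in the 4 Control-STAM-nonINS libraries was 6.43, 6.43, 7.05 and 5.38 CPM. In Control-STAM-INS it ranged from 5.56 through a median of 7.44 to 11.1 CPM, and in ieIRKO-STAM-INS from 4.04 through a median of 7.25 to 14.5 CPM. The 3 groups overlapped, and the widest spread was within ieIRKO-STAM-INS, where replicates 2 and 6 had 12.4 and 14.5 CPM. Between the 2 insulin-treated groups the log2 fold change was 0.18 (SE 0.24, 95% confidence interval -0.29 to 0.65, adjusted p = 0.814 from edgeR), and the exact two-sided permutation p on log2 CPM was 0.76. Against untreated controls the fitted log2 difference was 0.29 (SE 0.27) in insulin-treated controls and 0.47 (SE 0.27) in ieIRKO-STAM-INS, and these are descriptions. Il33 lies at chr19:29925114-29960718 on the forward strand.

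Il1rl1, the receptor, was the only one of the 9 genes whose 3 groups did not overlap. The 4 Control-STAM-nonINS libraries had 22.4, 15.5, 22.5 and 17.1 CPM, from 198 to 402 reads. The 6 Control-STAM-INS libraries ranged from 4.94 through a median of 6.24 to 8.94 CPM, from 75 to 183 reads. The 6 ieIRKO-STAM-INS libraries ranged from 9.06 through a median of 13.3 to 15.5 CPM, from 133 to 263 reads. Levels were therefore highest without insulin, lowest with insulin in the control genotype, and between the other two under the label ieIRKO-STAM-INS. The gaps at both borders were narrow, since the highest Control-STAM-INS library had 8.94 CPM against 9.06 CPM in the lowest ieIRKO-STAM-INS library, and the highest ieIRKO-STAM-INS library had 15.45 CPM against 15.52 CPM in the lowest Control-STAM-nonINS library.

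**Figure D1:**
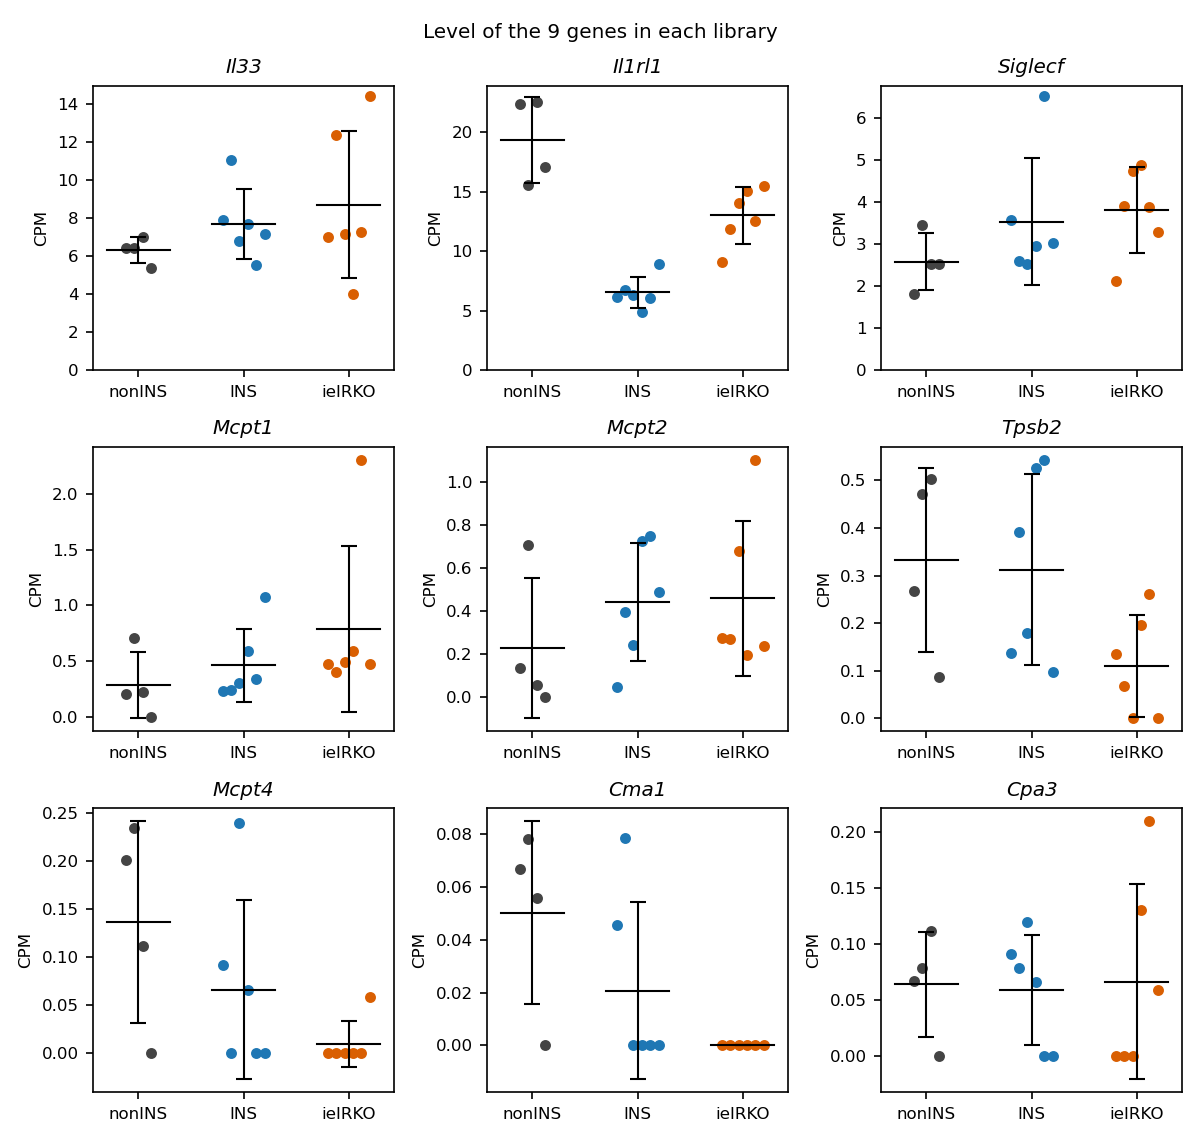
Level of each of the 9 genes in CPM (vertical axes, own scale per gene) in Control-STAM-nonINS (nonINS, n = 4), Control-STAM-INS (INS, n = 6) and ieIRKO-STAM-INS (ieIRKO, n = 6), 1 point per library, with the mean and SD as lines. Il1rl1 forms 3 separate groups, Il33 and Siglecf overlap, and the protease genes have few reads, with Cma1 at 0 in all 6 ieIRKO-STAM-INS libraries.

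Mean levels of Il1rl1 were 19.4 ± 3.60 CPM (SD, n = 4) without insulin, 6.54 ± 1.32 (SD, n = 6) in the control genotype with insulin, and 13 ± 2.38 (SD, n = 6) under the label ieIRKO-STAM-INS. In the insulin comparison, which chose the gene, the fitted log2 difference was -1.56 (SE 0.17), or 2.95-fold lower with insulin. Among all genes tested, 10.5% were called in either direction, 3.73% higher and 6.76% lower, where called means an adjusted p under 0.05, and 6.23% had every Control-STAM-INS library below every Control-STAM-nonINS library. In ieIRKO-STAM-INS the fitted log2 difference from untreated controls was -0.57 (SE 0.17), or 1.49-fold lower, again as a description because the same Control-STAM-nonINS libraries took part in the choice. In that comparison 13.3% of all genes were called, 5.74% higher and 7.59% lower, and 4.76% had all ieIRKO-STAM-INS libraries below all of the others. In the whole wall, fewer cells that carry ST2 and less Il1rl1 RNA per cell cannot be told apart.

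The comparison of ieIRKO-STAM-INS with Control-STAM-INS asks what loss of the epithelial insulin receptor changed in mice that all received insulin. Il1rl1 was 1.98-fold higher in the libraries labelled ieIRKO-STAM-INS (log2 fold change 0.99, SE 0.16, 95% confidence interval 0.69 to 1.29). All 6 of these libraries lay above all 6 Control-STAM-INS libraries. The Control-STAM-INS libraries are shared with the insulin comparison that chose the gene, so a low level in them enters both values, and the difference is given as a description without a p. Of all genes tested, 0.0393% were called higher in this comparison (6 genes), 0.183% were called lower, 0.223% in either direction (34 genes), and 0.439% had all libraries of one group above all of the other in this direction. Without ieIRKO-STAM-INS replicates 2 and 3, the libraries with high B cell genes, the log2 fold change was 0.98.

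Only 3 genes, or 0.0197% of those tested, kept all 3 groups apart in the order of Il1rl1, with Control-STAM-nonINS highest and Control-STAM-INS lowest. The other two were Faap20, a subunit of the Fanconi anaemia core complex, and Ppp1cc, a catalytic subunit of protein phosphatase 1, and both are named after their values were seen. The order counted is that of the gene chosen for its insulin difference, so the count is a description only. The 5 genes whose log2 CPM followed Il1rl1 most closely over the 16 libraries were Slc38a1, a glutamine transporter (r = 0.88), 3930402G23Rik (r = 0.87), Oas1d (r = 0.86), Faap20 (r = 0.86) and Zranb1 (r = 0.84). These correlations span the 3 groups and share their means. Within the groups, after each group mean was taken away, they were 0.50, 0.55, 0.26, 0.25 and 0.41. Of the 9 genes, Il33, Mcpt2 and Siglecf were compared in this way and were not among them, and Il33 itself gave r = -0.13 with Il1rl1 over the 16 libraries.

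**Figure D2:**
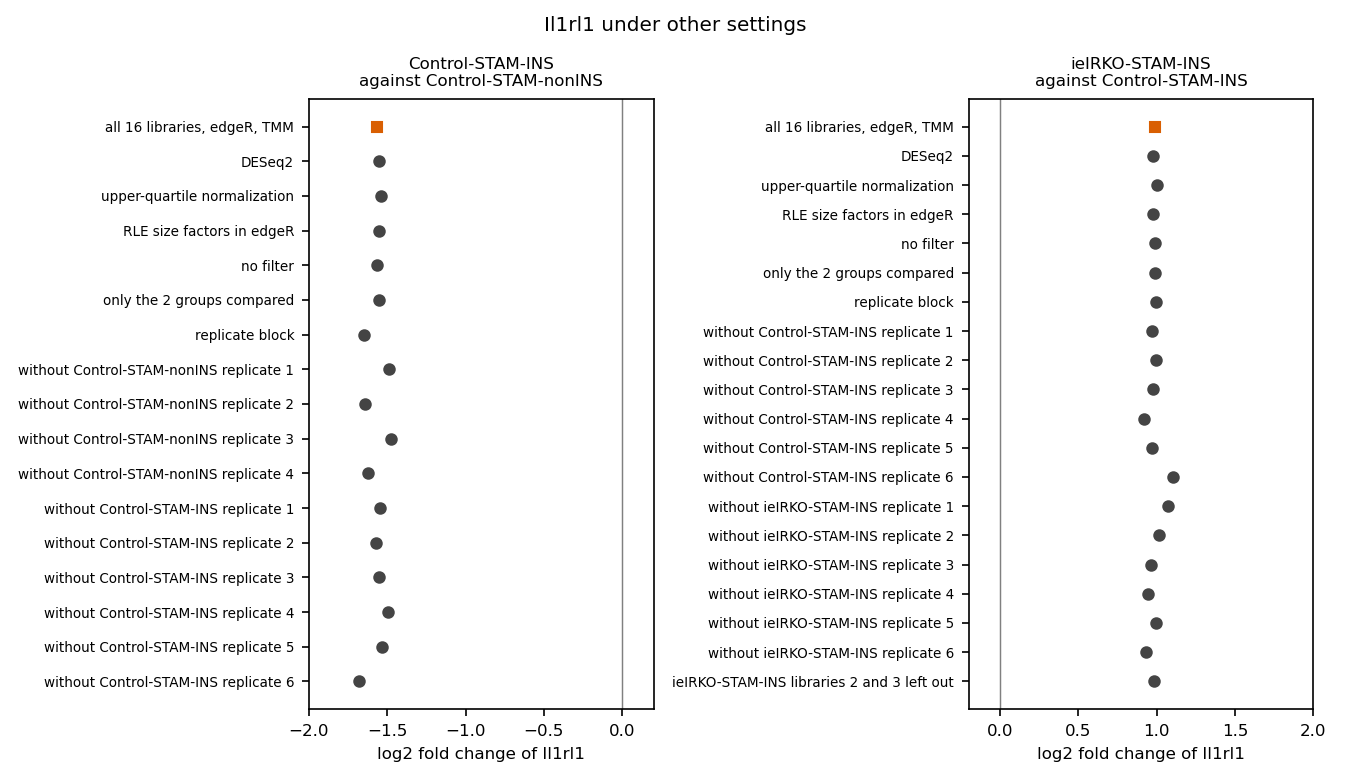
Log2 fold change of Il1rl1 (horizontal axes) in the insulin comparison (left) and between the 2 insulin-treated groups (right) for the edgeR fit of all 16 libraries (square) and for other settings or with single libraries left out (circles). Values lie between -1.68 and -1.48 on the left and between 0.92 and 1.10 on the right.

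None of the neighbours of Il1rl1 in the receptor cluster passed the test. They are Il1r1, the signalling receptor of IL-1, Il1r2, its decoy receptor, Il1rl2, the receptor of IL-36, and Il18r1 and Il18rap, the subunits of the IL-18 receptor. Il18r1 starts 136 bases after the end of Il1rl1 on the same strand, and its level was 2.65 ± 1.08 CPM (SD, n = 4) without insulin, 2.94 ± 0.395 (SD, n = 6) in insulin-treated controls and 3.40 ± 0.779 (SD, n = 6) in the libraries labelled ieIRKO-STAM-INS. Its log2 fold change was 0.14 (SE 0.25) with insulin and 0.22 (SE 0.22) in ieIRKO-STAM-INS against insulin-treated controls, neither past the threshold. None of the 5 cluster genes passed it in any of the 3 comparisons, where 10.5%, 0.223% and 13.3% of all genes did. The median log2 fold change of the 5 was -0.53 with insulin, beside a median of -0.004 over all genes tested, and that of Il1r1 was -0.53 (SE 0.18, adjusted p = 0.0717 from edgeR).

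Of the 8 genes for the partners of ST2 downstream of IL-33, 1 rose with insulin and none fell, a share near the 10.5% of all genes called. This was Sigirr, an inhibitory receptor of the IL-1 family, with 20.9 ± 3.84 CPM (SD, n = 4) without and 27.7 ± 2.63 CPM (SD, n = 6) with insulin (log2 fold change 0.41, SE 0.13, adjusted p = 0.0443 from edgeR). That call was lost in 8 of the 10 fits that left out 1 library. Il1rap, the accessory chain, had 6.10 ± 1.51, 5.15 ± 1.29 and 5.73 ± 1.25 CPM in the 3 groups, and its log2 fold changes were -0.25 (SE 0.22) with insulin and 0.16 (SE 0.19) in ieIRKO-STAM-INS against insulin-treated controls. Between the insulin-treated groups none of the 8 passed, and Irak2, a signalling kinase and the most abundant of them in that comparison, had a log2 fold change of -0.10 (SE 0.11, adjusted p = 0.787 from edgeR). Against untreated controls, ieIRKO-STAM-INS was higher for Sigirr (log2 fold change 0.43, adjusted p = 0.0318) and for the kinase gene Irak1 (log2 fold change 0.34, adjusted p = 0.0311, both from edgeR), and each of these 2 calls was lost in 4 or more of the 10 fits that left out 1 library.

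Of 5 other genes for ligands of the IL-1 family, 4 were tested with insulin, 2 fell and none rose, and Il36g was not analysed here. Over all genes tested, 6.76% were called lower with insulin and 3.73% higher, and 7.59% were called lower in ieIRKO-STAM-INS against untreated controls. Il1a, which encodes IL-1 alpha, fell by 1.85 on the log2 scale (SE 0.46, adjusted p = 0.0163 from edgeR), and Il18, which encodes IL-18, fell by 1.03 (SE 0.20, adjusted p = 0.00409). The call of Il1a was lost without Control-STAM-nonINS replicate 1 (log2 fold change -1.43, adjusted p = 0.0935). Il18 had 65.5 ± 13.2 CPM (SD, n = 4) without and 32.0 ± 6.75 CPM (SD, n = 6) with insulin. Neither passed between the insulin-treated groups, where Il18 had a log2 fold change of 0.38 (SE 0.18, adjusted p = 0.449 from edgeR). In ieIRKO-STAM-INS both were lower than in untreated controls, by log2 fold changes of -1.93 for Il1a (adjusted p = 0.0113) and -0.66 for Il18 (adjusted p = 0.0394, both from edgeR), of which that of Il18 was lost in 7 of the 10 fits that left out 1 library and that of Il1a without Control-STAM-nonINS replicate 1.

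**Figure D3:**
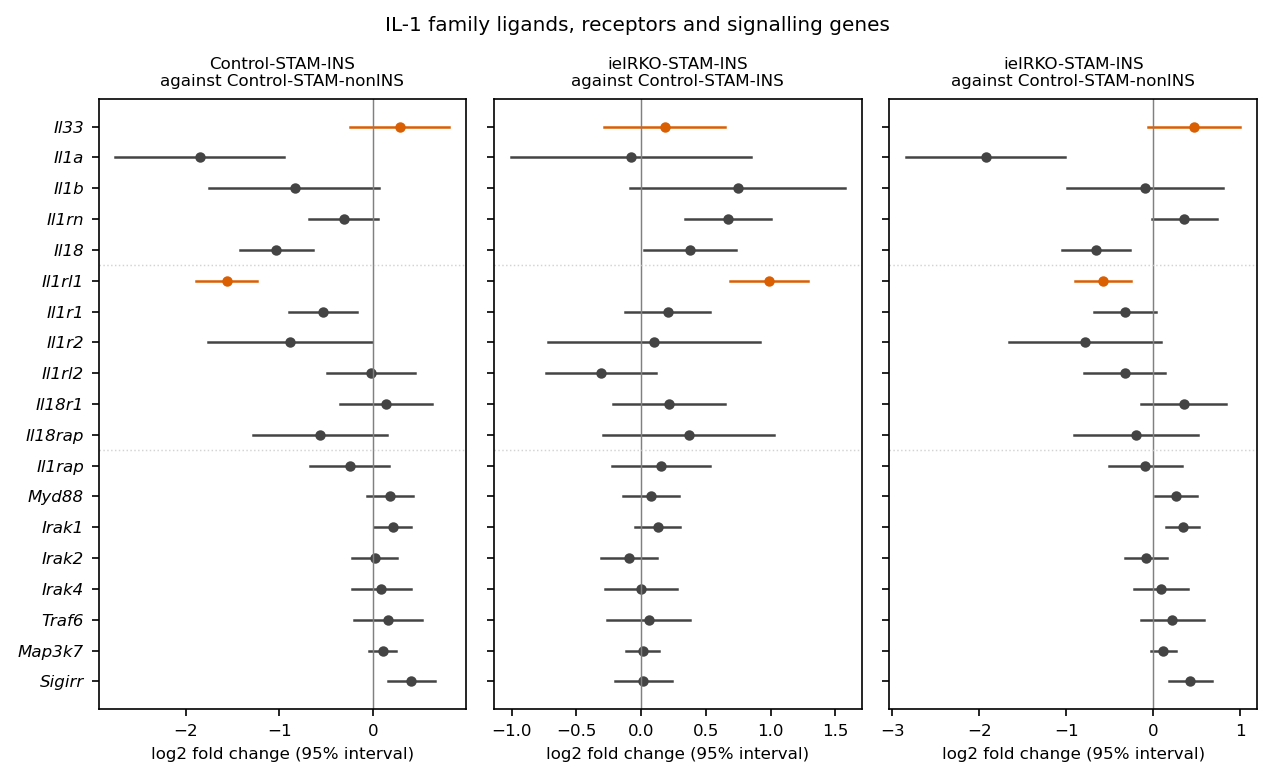
Log2 fold change with its 95% confidence interval (horizontal axes, own scale per panel) in the 3 comparisons (1 panel each) of IL-1 family ligands (upper rows), receptors of the Il1rl1 cluster (middle rows) and signalling genes (lower rows), with Il33 and Il1rl1 in orange. The log2 fold change of Il1rl1 is -1.56 with insulin (left), 0.99 between the insulin-treated groups (middle) and -0.57 in ieIRKO-STAM-INS against untreated controls (right). Its intervals are drawn as a description and are not a test, since the insulin comparison chose the gene and the other comparisons share libraries with it.

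Mast cell proteases were close to the limit of detection. Mcpt1, the marker protease of mucosal mast cells, had 3, 9, 4 and 0 reads in the Control-STAM-nonINS libraries. It had 3 to 22 reads (median 5) in insulin-treated controls and 6 to 44 (median 8) in ieIRKO-STAM-INS. The groups overlapped, and ieIRKO-STAM-INS replicate 5 with 44 reads stood above every other library. Mcpt2, another mucosal chymase gene, had 2, 9, 1 and 0 reads in untreated controls, 1 to 11 (median 7.5) in insulin-treated controls and 3 to 21 (median 4) in ieIRKO-STAM-INS. Its groups overlapped too, and the log2 fold change between the insulin-treated groups was 0.13 (SE 0.65, 95% confidence interval -1.14 to 1.41, adjusted p = 0.956 from edgeR).

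Mcpt4 and Cma1, genes of connective tissue mast cells, had fewer reads still. Mcpt4 had 3, 3, 2 and 0 reads in untreated controls, 0 to 4 (median 0.5) in insulin-treated controls and 1 read in all 6 ieIRKO-STAM-INS libraries together. Cma1, another chymase gene of these cells, had 1 read in each of 3 Control-STAM-nonINS libraries, 2 reads in all 6 Control-STAM-INS libraries and 0 in all 6 ieIRKO-STAM-INS libraries. At most 4 reads were found for either gene in any library. Tpsb2, a tryptase gene, had 4, 6, 9 and 2 reads in untreated controls, 2 to 8 (median 4) in insulin-treated controls and 0 to 5 (median 1.5) in ieIRKO-STAM-INS, and Cpa3, for carboxypeptidase A3, had 0 to 2 reads in each of the control groups and 0 to 4 in ieIRKO-STAM-INS.

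Between the insulin-treated groups, exact permutation tests, two-sided, on log2 CPM gave p = 0.277 for Mcpt1, 0.935 for Mcpt2, 0.182 for Mcpt4, 0.455 for Cma1, 0.0541 for Tpsb2 and 0.978 for Cpa3, among 9 tests made over the genes. The 6 protease genes together had 2 to 29 reads per library in untreated controls, 14 to 34 in insulin-treated controls and 11 to 74 in ieIRKO-STAM-INS. Cma1, Mcpt1, Mcpt2 and Mcpt4 lie in this order within 120863 bases of chromosome 14, with Cma2 and Mcpt9 among them, and are related in sequence, and how reads shared between such genes were counted is not given in the sources used here.

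Several markers of mast cells were at or near 0, so the 6 genes are taken here by name and not as a measure of mast cells. Fcer1a and Ms4a2, the subunits of the high-affinity IgE receptor that define mast cells and basophils, had at most 2 and 1 reads in any library, and Tpsab1, Cma2, Mcpt9 and Mrgprb1 were at 0 in all 16. Mcpt8 and Cd200r3, genes of basophils, had 2 and 1 reads in all. Gata2 and Slc18a2, which are also on the mast cell list, had up to 157 and 92 reads in a library. The 12 other mast cell genes summed to 55.6 to 65.1 CPM in untreated controls, 54.8 to 64.3 in insulin-treated controls and 52.2 to 70.8 in ieIRKO-STAM-INS, mostly from Kit, which interstitial cells of Cajal also express, and from Tpsg1. Of the 5 of them tested, Hdc, the histamine-forming enzyme, fell with insulin (log2 fold change -1.31, SE 0.33, adjusted p = 0.0172 from edgeR) and Tpsg1, a membrane tryptase gene, rose (0.56, SE 0.13, adjusted p = 0.0126), and none passed between the insulin-treated groups. Hdc lost its call without Control-STAM-nonINS replicate 4 (log2 fold change -1.02, adjusted p = 0.0855). Tpsg1 was also higher in ieIRKO-STAM-INS than in untreated controls (log2 fold change 0.62, adjusted p = 0.00604 from edgeR).

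**Figure D4:**
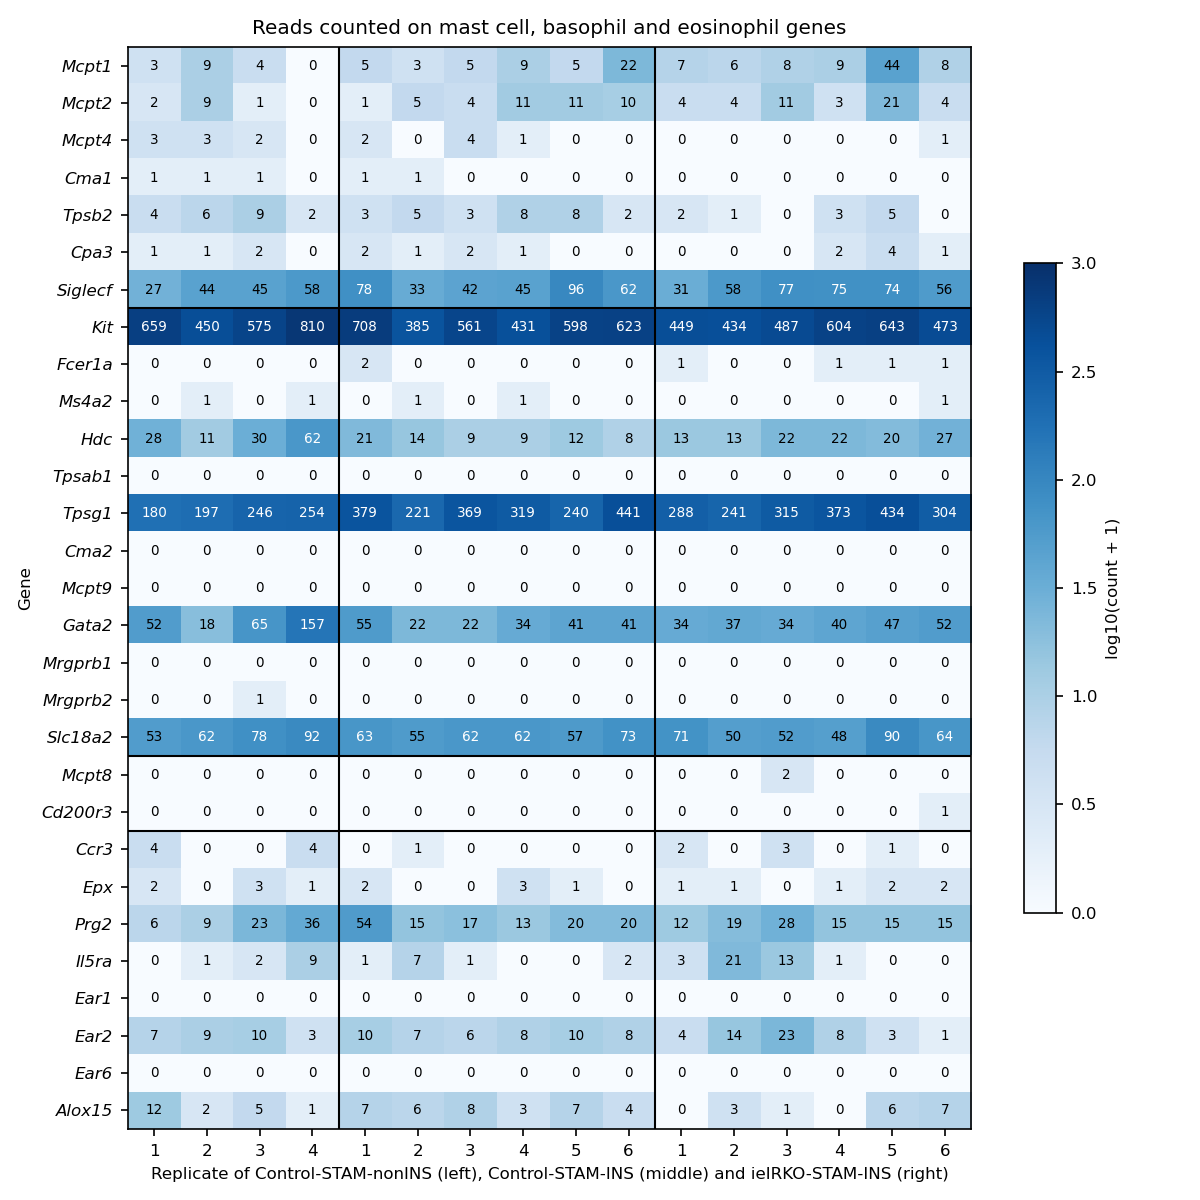
Reads counted per library (numbers in the cells, colour on a log10 scale of count + 1) for the 6 protease genes and Siglecf (top), other mast cell genes, basophil genes and other eosinophil genes (bottom), with the libraries of the 3 groups side by side. Fcer1a never exceeds 2 reads and Ms4a2 never exceeds 1, and Ear1 and Ear6 are at 0 in all 16 libraries.

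Siglecf, which intestinal tuft cells express as well as eosinophils, did not separate the groups. It had 1.81, 3.45, 2.52 and 2.54 CPM in untreated controls, 2.52 to 6.52 CPM (median 3.00) in insulin-treated controls and 2.11 to 4.88 CPM (median 3.90) in ieIRKO-STAM-INS. The ranges overlapped, with Control-STAM-INS replicate 5 highest. Between the insulin-treated groups the log2 fold change was 0.11 (SE 0.25, 95% confidence interval -0.38 to 0.60, adjusted p = 0.894 from edgeR), and the exact permutation test gave p = 0.617. The fitted log2 differences from untreated controls were 0.46 (SE 0.29) in insulin-treated controls and 0.57 (SE 0.29) in ieIRKO-STAM-INS.

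The defining genes of eosinophils were also close to 0. Epx, for eosinophil peroxidase, had at most 3 reads in any library, Ccr3, the eotaxin receptor, had at most 4, and Ear1 and Ear6 had 0 in all. Prg2, for major basic protein, had 6 to 54 reads, and its log2 fold change was 0.37 (SE 0.38) with insulin and -0.30 (SE 0.34) between the insulin-treated groups. Neither of the 2 tested eosinophil genes, Prg2 and Ear2, passed in any comparison. The 8 genes summed to 1.65 to 2.40, 1.66 to 3.39 and 1.42 to 4.19 CPM in the 3 groups.

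The genes that followed Siglecf most closely over the 16 libraries, looked up after its values were seen, were Sh2d6 (r = 0.88), Dclk1 (r = 0.84), Cyren (r = 0.84), Sh2d7 (r = 0.81) and Wdr92 (r = 0.80), of which Sh2d6, Dclk1 and Sh2d7 are known from tuft cells, the chemosensory cells of the epithelium. With each group mean taken away, Sh2d6 still gave 0.87 and Dclk1 0.80. The tuft cell channel gene Trpm5 gave 0.71 and ranked 37, whereas Prg2 gave 0.42 and ranked 1439 of 15266 genes. Not all tuft cell genes followed, since Pou2f3 gave 0.26 and Ptgs1 -0.23. Over the 16 libraries, points share depth and group means, and these values carry no test. Of the tuft cell genes, a list also written after the values were seen, Trpm5 was called higher with insulin (log2 fold change 0.59, adjusted p = 0.0334) and Ptgs1 lower (log2 fold change -0.51, adjusted p = 0.0167, both from edgeR), and neither was called between the insulin-treated groups. Over all genes, 3.73% were called higher with insulin and 6.76% lower. The median log2 fold change of the list with insulin was 0.59. In ieIRKO-STAM-INS against untreated controls, Trpm5 (0.75, adjusted p = 0.00736) and Sh2d7 (1.01, adjusted p = 0.0395) were called higher and Ptgs1 lower (-0.61, adjusted p = 0.00497, all from edgeR).

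**Figure D5:**
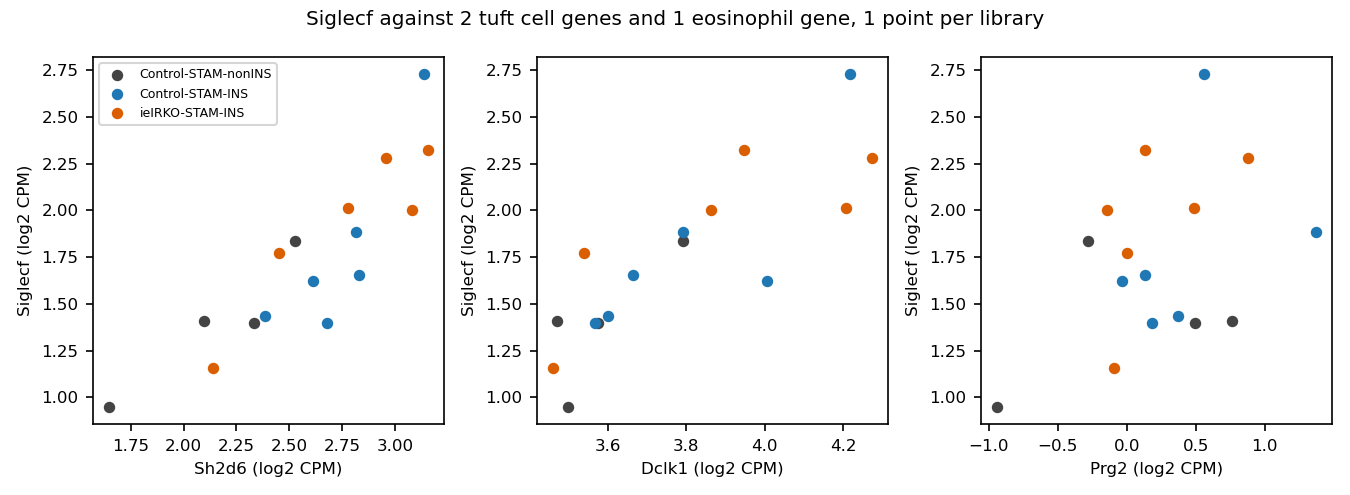
Siglecf (vertical axes, log2 CPM) against the tuft cell genes Sh2d6 and Dclk1 and the eosinophil gene Prg2 (horizontal axes, log2 CPM), 1 point per library, coloured by group. Libraries line up for Sh2d6 (r = 0.88) and Dclk1 (r = 0.84) and scatter for Prg2 (r = 0.42).

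Cytokines of type 2 immunity were nearly absent. Il3, Il9 and Il13 had 0 reads in all 16 libraries, Il4 and Il5 at most 1 in any, and Il25, the tuft cell alarmin, and Csf2 at most 3. Tslp, the alarmin of epithelial cells, had at most 20 and did not pass in any comparison. Areg, which encodes the repair factor amphiregulin, was the abundant one of the 9, at 5.12 to 53.6 CPM in untreated controls, 3.53 to 10.2 in insulin-treated controls and 1.66 to 11.2 in ieIRKO-STAM-INS. It was lower in ieIRKO-STAM-INS than in untreated controls (log2 fold change -2.45, SE 0.61, adjusted p = 0.0172 from edgeR) and missed the threshold with insulin (-1.85, SE 0.59, adjusted p = 0.0613). The first of these calls was lost without Control-STAM-nonINS replicate 1 (adjusted p = 0.0743) and without ieIRKO-STAM-INS replicates 2 and 3 (adjusted p = 0.0784).

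Genes of other cells that are known to carry ST2 were called about as often as all genes, of which 10.5% were called with insulin, or not at all. Of the 9 genes of group 2 innate lymphoid cells, 7 were tested and 1 fell with insulin, Rora, a transcription factor gene that many other cells also use, from 9.74 ± 1.60 CPM (SD, n = 4) to 5.99 ± 1.18 (SD, n = 6), a log2 fold change of -0.71 (SE 0.15, adjusted p = 0.00600 from edgeR). Rora was also lower in ieIRKO-STAM-INS than in untreated controls (-0.59, adjusted p = 0.0147), a call lost without Control-STAM-nonINS replicate 1, and its log2 fold change between the insulin-treated groups was 0.12 (SE 0.14, adjusted p = 0.795). Of the 5 genes of regulatory T cells, 3 were tested and none passed in any comparison. Foxp3, their defining factor, had 2 to 23 reads and did not pass the filter.

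Of 7 genes for the growth and homing of mast cells, 5 were tested with insulin, and 3 rose and none fell. Over all genes tested, 3.73% were called higher with insulin and 6.76% lower. Tgfb1, which encodes a growth factor that acts on mucosal mast cells, had a log2 fold change of -0.68 (SE 0.23, adjusted p = 0.0709 from edgeR). Kitl, which encodes stem cell factor, rose from 55.1 ± 3.62 CPM (SD, n = 4) to 88.2 ± 6.49 CPM (SD, n = 6), a log2 fold change of 0.68 (SE 0.11, adjusted p = 0.00119 from edgeR). Itgae and Itgb7, the chains of an integrin that holds mast cells and intraepithelial lymphocytes in the epithelium, rose by 0.99 (adjusted p = 0.00821) and 1.11 (adjusted p = 0.0226), the second of these calls being lost without Control-STAM-nonINS replicate 1 or 3. None of the 5 passed between the insulin-treated groups. Kitl, Itgae and Itgb7 were called higher in ieIRKO-STAM-INS than in untreated controls, a comparison that shares its untreated libraries with the first. Their log2 fold changes were 0.61 for Kitl, 1.06 for Itgae and 1.73 for Itgb7, and that of Itgb7 was 1.29 without ieIRKO-STAM-INS replicates 2 and 3. In that comparison 5.74% of all genes were called higher and 7.59% lower. Of 5 genes for eosinophil chemokines and the IL-13 response, 3 were tested, none passed with insulin or between the insulin-treated groups, and Ccl11, for eotaxin, was lower in ieIRKO-STAM-INS than in untreated controls (log2 fold change -1.24, SE 0.28, adjusted p = 0.00834 from edgeR).

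Markers of the wall's other cells were read beside Il1rl1. The share of all genes called lower was 6.76% with insulin and 7.59% in ieIRKO-STAM-INS against untreated controls. Of 6 endothelial genes, 2 fell with insulin, Vwf (log2 fold change -0.75, adjusted p = 0.0282) and Cdh5 (-0.70, adjusted p = 0.0197, both from edgeR), and both calls were lost without Control-STAM-nonINS replicate 4 (log2 fold changes -0.41 and -0.46) and without Control-STAM-nonINS replicate 1, and that of Vwf in 5 of the 10 fits that left out 1 library. In ieIRKO-STAM-INS against untreated controls Vwf (-0.78, adjusted p = 0.0193) and Lyve1 (-0.71, adjusted p = 0.0202, both from edgeR) were lower, and both calls were lost without Control-STAM-nonINS replicate 4. The 6 summed to 117 to 303 CPM in untreated controls, 104 to 152 in insulin-treated controls and 118 to 155 in ieIRKO-STAM-INS. The library with 303 CPM had 17.1 CPM of Il1rl1, below 2 others of its group. Without it, the fitted log2 difference of Il1rl1 with insulin was -1.62. Over the 16 libraries the 6 endothelial genes gave r of 0.10 (Prox1) to 0.66 (Cdh5) with Il1rl1. With each group mean taken away, their values ran from -0.34 (Prox1) to 0.18 (Cdh5). These values carry no test. None of the 5 fibroblast genes, the 4 smooth muscle genes or the 5 genes of fat and mesothelium passed in any comparison, and none of the 5 epithelial genes passed with insulin or between the insulin-treated groups. Of 5 acinar genes, 3 had 0 reads in all 16 libraries and only Cela1 was tested, so its value is not a measure of acinar cells. Cela1 fell with insulin (-0.89, adjusted p = 0.0042 from edgeR). In ieIRKO-STAM-INS against untreated controls, Cela1 (-0.84, adjusted p = 0.0053) and the bile acid carrier gene Fabp6 of the ileal epithelium (-0.59, adjusted p = 0.0338) were lower and the B cell gene Cd79a was higher (1.86, adjusted p = 0.0487, all from edgeR). Without ieIRKO-STAM-INS replicates 2 and 3 the calls of Fabp6 and Cd79a were lost (-0.54 and 0.66). With 1 library left out, the call of Fabp6 was also lost in 6 of 10 fits and that of Cd79a in 7 of 10.

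Between the insulin-treated groups, where 0 genes of any of these lists outside the 9 passed, the B cell genes had the largest median, with a log2 fold change of 2.65 over 4 genes, summed levels of 17.3 to 29.1 CPM in insulin-treated controls and 24.0 to 354 CPM in ieIRKO-STAM-INS. Il1rl1 in the pair of libraries with the highest B cell genes was 11.9 and 14.0 CPM, inside the range of the other 4. The part of any of these cells in the level of Il1rl1 was not tested.

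Pairs of the 9 genes were also compared within each insulin-treated group. Of 10 relations planned, 9 could be computed, since Cma1 was at 0 in ieIRKO-STAM-INS. Il1rl1 and its ligand Il33 gave Pearson's r = 0.05 (exact permutation p = 0.906, adjusted p = 0.981) and Spearman's rho = 0.20 (p = 0.714) in insulin-treated controls, and r = 0.01 (exact permutation p = 0.981, adjusted p = 0.981) and rho = 0.20 (p = 0.714) in ieIRKO-STAM-INS, each over 6 libraries. The smallest p belonged to Mcpt1 and Cpa3 in ieIRKO-STAM-INS (r = 0.81, exact permutation p = 0.025, adjusted p = 0.225, rho = 0.70, p = 0.144), and without the 2 libraries farthest from the median of Mcpt1 this r was 0.17. None of the 9 passed the adjustment.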

How the data were processed

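Libraries were made from total RNA of whole ileal wall with a directional kit. The authors mapped them in CLC Genomics Workbench against GRCm38, and they deposited read counts per gene, 1 table for each of the 16 libraries. The values are whole, unnormalized counts. The annotation, the strand setting and the counting of shared reads are not given in the sources used here. The fits used R 4.3.3 with edgeR 4.0.16, which rests on limma 3.58.1. filterByExpr (minimum count 10, minimum total 15) kept 15267 genes, library sizes were scaled by TMM, and a robust quasi-likelihood model was fitted to the 3 groups together. Adjusted p-values are Benjamini-Hochberg values over all genes tested, with a threshold of 0.05. Levels are CPM after TMM, and log2 CPM adds a prior count of 2. Standard errors are the log2 fold change divided by the square root of F, and 95% intervals use the normal quantile, 1.96. Exact permutation tests between the insulin-treated groups used all 924 arrangements of the libraries, and those of gene pairs used all pairings of 6 libraries, with a smallest possible p of 0.00139.

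Replicates within a group correlated at 0.9625 to 0.9854 in log2 CPM, and no pair of libraries was identical. Gene positions are from GENCODE on GRCm38. The 9 genes and 18 lists of related genes were chosen with earlier results of these data known. Beside the 9 genes, the text names from each list up to 4 genes called in a comparison, those with the largest change, otherwise its most abundant gene, and the 5 genes most like Il1rl1. The same was planned for Mcpt1 and was not done because it failed the filter. Other names, the genes most like Siglecf and the tuft cell list were chosen after the values were seen. A tuft cell list member is not reported here. The fits were tested on simulated data. Alternatives were DESeq2 1.42.0, upper-quartile and RLE scaling, no filter, only the groups compared, the replicate number as a block, and leaving out libraries. Figures were drawn with matplotlib 3.10.9. The precision of low genes is set by depth, with a limit of 3 counts, which is 0.131 to 0.235 CPM, and this covers counting error only.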

Additional observations from a re-analysis of the deposited data

Results flagged for a closer look

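Among 26 sets of libraries (each of the 9 genes in each group, where counts varied), 3 held a library far from the others of its group, where chance gives about 1 in 20, or 1.3 of 26. The measure is the gap to the nearest library divided by the range of the group on the log2 CPM scale. Mcpt1 in ieIRKO-STAM-INS replicate 5 stood high, with 44 reads or 2.31 CPM and a gap of 0.806 of the range. Mcpt4 in ieIRKO-STAM-INS replicate 6 stood high with a gap of 1, which rests on a single read in that library and 0 in the other 5. Siglecf in Control-STAM-INS replicate 5 stood high, with 96 reads or 6.52 CPM and a gap of 0.636. Without this library, the log2 fold change of Siglecf between the insulin-treated groups was 0.37 in place of 0.11, and it was not past the threshold (adjusted p = 0.579 from edgeR).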

How the results depend on the processing

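Il1rl1 kept its direction in all settings run. Its log2 difference with insulin lay between -1.65 and -1.54 in 6 other settings and between -1.68 and -1.48 with 1 library left out. Its log2 fold change between the insulin-treated groups lay between 0.98 and 1.00 in 7 other settings and between 0.92 and 1.10 with 1 library left out. The number of genes called with insulin was 1602, and 824 to 1877 with 1 library left out, 824 without Control-STAM-nonINS replicate 1. Between the insulin-treated groups it was 34, 29 to 50 with 1 library left out and 123 with DESeq2. Between ieIRKO-STAM-INS and Control-STAM-nonINS it was 2036, 1038 with only the 2 groups compared, 1270 without ieIRKO-STAM-INS replicates 2 and 3, and 1093 to 2274 with 1 library left out, 1093 without Control-STAM-nonINS replicate 1. The cause of these shifts was not tested, apart from the fewer libraries in some fits.

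Over 40 fold changes of single genes and 669 alternatives, no call changed direction and 80 calls were lost. Movement beyond the spread was checked only for the 4 tested genes of the 9, in the comparisons with untreated controls. There, 2 values moved by more than the spread, both of Mcpt2 without Control-STAM-nonINS replicate 2 (2.80 with insulin and 2.94 between ieIRKO-STAM-INS and the untreated controls). Values that were not past the threshold did turn in sign between the insulin-treated groups, Mcpt2 from 0.13 to -0.36 without ieIRKO-STAM-INS replicate 5 and to -0.13 without Control-STAM-INS replicate 1, Il33 from 0.18 to -0.02 without ieIRKO-STAM-INS replicate 6, and Siglecf from 0.11 to -0.001 without ieIRKO-STAM-INS replicates 2 and 3. Between Il1rl1 and Cpa3 in Control-STAM-INS, r was -0.45, with Spearman's rho 0.03 and 0.39 without 2 libraries, and between Il1rl1 and Il33 the r without 2 libraries was -0.91 in ieIRKO-STAM-INS and 0.84 in Control-STAM-INS, on 4 libraries each. Same-numbered libraries deviated together with correlations of -0.094 to 0.179, so the numbers were not taken as pairs. With the replicate number as a block, 1397, 30 and 1615 genes were called in the 3 comparisons, and the insulin calls of Sigirr and Hdc were lost, and Il1rl1 gave -1.65 with insulin and 1.00 between the insulin-treated groups. Low counts limit the 6 protease genes, of which 5 did not pass the filter.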

Other observations

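The genes that followed Il33 most closely over the 16 libraries, looked up after its values were seen, were Hspa13 (r = 0.92), Rnf20 (r = 0.88), Gosr2 (r = 0.85), Myh9 (r = 0.85) and Dnaja1 (r = 0.82). Hspa13 and Dnaja1 encode members of the chaperone machinery. With each group mean taken away, Hspa13 gave 0.92 and Dnaja1 0.80. The level of Dnaja1 was 176 ± 34.5 CPM (SD, n = 4) without insulin, 218 ± 18.9 (SD, n = 6) in insulin-treated controls and 254 ± 94.0 (SD, n = 6) in ieIRKO-STAM-INS, the group in which Il33 was also most spread.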
